A study of Danio rerio with 8 samples.

Results

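Ephrins and Eph receptors were examined in RNA of cells and extracellular vesicles (EVs) sorted from fractured zebrafish scales, as all genes whose symbol starts with *efna*, *efnb*, *epha* or *ephb* followed by a digit. Of the 32057 Ensembl genes listed for each library, 30 met this rule: 9 *efna*, 5 *efnb*, 8 *epha* and 8 *ephb* genes, or 14 ligands and 16 receptors. They carried 24 distinct symbols, because 6 symbols each stood for 2 gene IDs. These pairs are given by Ensembl ID, since the symbol table does not tell which ID is the a or b copy.

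Fish were adults, labelled as wild type, and carried both reporters *trap:GFP* and *osterix:mCherry* according to the methods of the study. GFP is driven there by the upstream region of zebrafish *trap* (*acp5a*) and mCherry by that of medaka *osterix* (*sp7*), so every gate rests on promoter activity or on reporter protein that a cell or particle holds. All fractions came from scales at 1 day post-fracture: mature osteoclasts (mOC, the GFPhigh gate), precursor osteoclasts (pOC, GFPlow and mCh+), EVs (mCh+ particles with a low Hoechst signal) and osteoblasts (OB, GFP- and mCh+). Each of the 4 fractions has 2 libraries by its labels, which the study describes as biological replicates of a single experiment. Neither the labels nor the methods tie a library to particular animals, so the p-values measure the spread between these libraries.

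Both OB files held the same value for all 32057 genes, and the header of both names the second replicate. OB was therefore counted as 1 library, with no SD, and the fits assume that OB varies as the other fractions do. The files hold RPM, the reads of a gene scaled to a common library total. Whole reads recovered from them came to 11814593 to 24435509 per library, and 14125 to 19515 genes were above 0, the fewest in EV. At these depths 3 reads, taken as the floor, correspond to 0.123 to 0.254 RPM, a limit that covers counting error only.

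Marker levels mostly went with the labels for mOC and OB. The osteoclast genes *acp5*, which encodes the phosphatase TRAP, and *ctsk*, which encodes cathepsin K, reached 1132 and 1538 RPM and 8408 and 9433 RPM in mOC, against 12.5 and 1719 RPM in OB. In pOC they had 161 and 144 RPM and 2949 and 3522 RPM, and *ocstamp* and the *tcirg1* genes were also above OB there. Other osteoclast genes were not: *nfatc1* had 118 and 119 RPM in pOC and 124 RPM in OB, and *mmp9* 926 and 673 RPM in pOC and 901 RPM in OB. The osteoblast transcription factor *sp7* had 5.42 RPM in OB and at most 2.09 RPM in any other library, and *bglap* and *calcr*, which encode osteocalcin and the calcitonin receptor, were at 0 in all libraries. Of 7 macrophage marker symbols 5 were matched, without *mpeg1.1* and *mfap4.1*, and all 5 were above 0 in each library. They summed to 2641 to 3280 RPM in mOC, 2329 to 2913 RPM in pOC, 1867 to 2082 RPM in EV and 497 RPM in OB.

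Eph receptors are receptor tyrosine kinases, and their ligands, the ephrins, sit in the membrane of the neighbouring cell. Ephrin-A ligands hold on by a lipid anchor and mostly bind EphA receptors, whereas ephrin-B ligands span the membrane and mostly bind EphB receptors. Contact sends a forward signal into the Eph-bearing cell and a reverse signal into the ephrin-bearing cell. In mouse bone, ephrin-B2 on osteoclasts and EphB4 on osteoblasts form such a pair, in which the forward signal favours osteoblast differentiation and the reverse signal restrains osteoclast differentiation.

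Ephrin and Eph RNA was highest in OB for most of the family. Of the 30 genes, 23 reached at least 1 RPM in at least 2 libraries and were tested, and 20 of these 23 had their highest value in the OB library, compared with 21.7% of the 14006 genes tested in all. In those 20 genes OB lay 1.19- to 3.64-fold above the next library, with a median of 1.90-fold. The 3 exceptions were *efna3*, *efna4* and *ephb6*. The *efna2* gene ENSDARG00000031372, the *efnb2* gene ENSDARG00000074050, *efnb3* and the *epha4* gene ENSDARG00000010767 reached 1 RPM in OB and pOC libraries only and passed through these, so counts over the tested genes describe the genes that passed and not the whole family. Summed over all 30 genes, the level was 126 and 113 RPM in mOC, 225 and 267 RPM in pOC, 201 and 102 RPM in EV and 616 RPM in OB. Receptors had 66.9 and 48.2 RPM of this in mOC, 142 and 173 RPM in pOC, 130 and 64.9 RPM in EV and 450 RPM in OB. For ligands the sums were 59.1 and 65.0 RPM in mOC, 83.5 and 94.8 RPM in pOC, 70.9 and 37.3 RPM in EV and 166 RPM in OB. The mOC and pOC libraries did not overlap in any of these sums, while the EV libraries differed by more than did those of mOC or pOC.

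The 7 genes that were not tested stayed at or under 0.67 RPM in all libraries. *efna3a*, *efnb1* and the *ephb2* gene ENSDARG00000037373 were at 0 throughout. *epha6* and *ephb1* were above 0 in 1 and 2 libraries, with at most 0.10 RPM. The *efna2* gene ENSDARG00000079740 had 0.20 RPM in OB, and *efnb3a* reached 0.67 RPM there and 0.39 RPM in 1 mOC library.

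**Figure D1:**
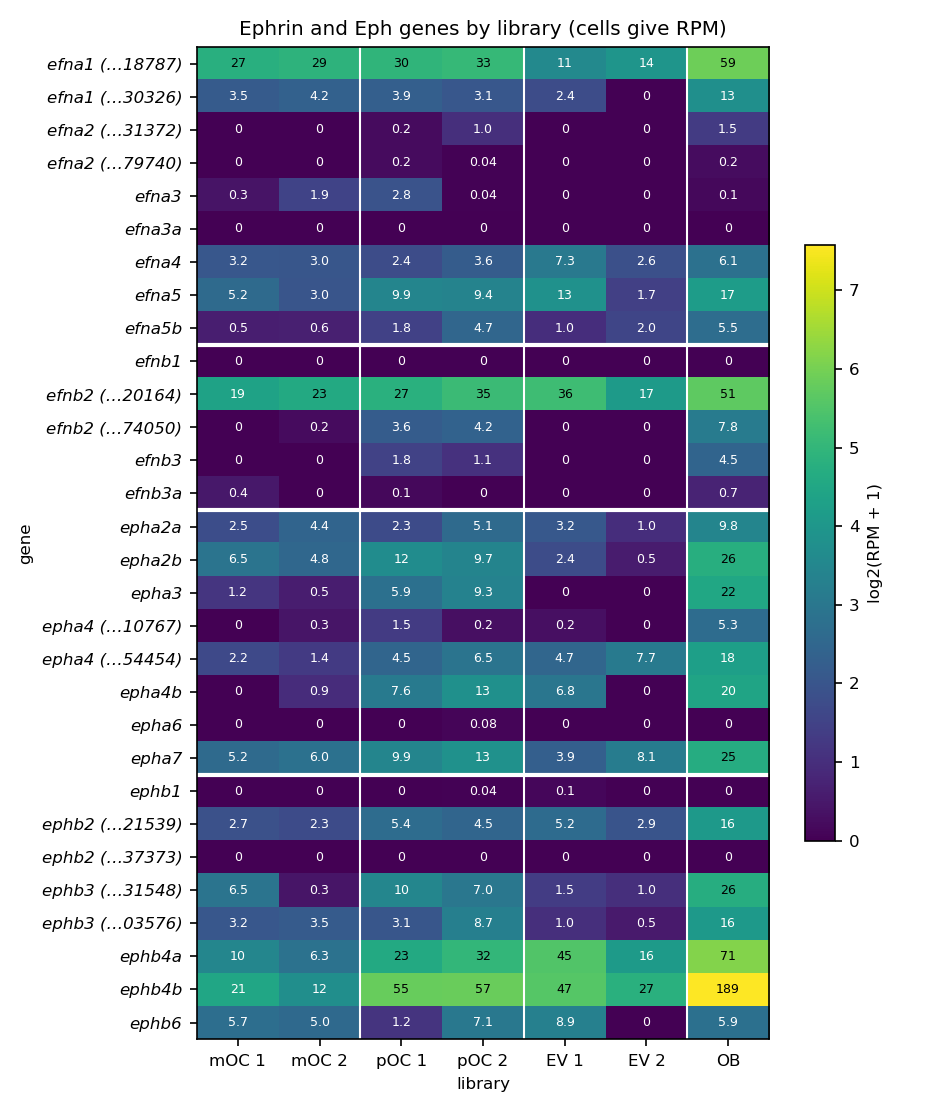
Level of all 30 ephrin and Eph genes (rows, by family: efna, efnb, epha, ephb) in the 7 distinct libraries (columns), coloured by log2(RPM + 1) and with the RPM printed in each cell. The OB column is the brightest in 20 of the 23 tested rows, and 3 rows are at 0 in every library.

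A moderated F test of limma on log2(RPM + 1) asked which genes differed among the 4 fractions. It called 6 of the 23 members (adjusted p under 0.05 and means more than 1 apart on the log2 scale), against 11.1% of all genes tested, and all 6 had their highest mean in OB, against 3.87% of all genes. They were *ephb4b* (adjusted p = 0.0167), *epha3* (adjusted p = 0.0113), *epha2b* (adjusted p = 0.0394), the *efnb2* gene ENSDARG00000074050 (adjusted p = 0.0149), *efnb3* (adjusted p = 0.0373) and the *efna1* gene ENSDARG00000018787 (adjusted p = 0.0365). Of these, the *efnb2* gene and *efnb3* passed the filter only through OB and pOC libraries. At an unadjusted p under 0.05 there were 15 members. All genes were not counted at that threshold in limma, so this count cannot show an excess of members over other genes. The calls rest on few libraries: without either pOC or either mOC library limma called 0 members, and it called 17 without EV replicate 1 and 15 without EV replicate 2. Over all genes it called 1549 with all libraries, 62 to 208 without a pOC or mOC library, 4567 without EV replicate 1 and 3856 without EV replicate 2.

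The ephrin-B2 genes, which encode the ligand of the mouse contact pair, differed from each other in their pattern. ENSDARG00000020164 had 19.4 and 23.2 RPM in mOC, 27.1 and 35.1 RPM in pOC, 36.3 and 16.6 RPM in EV and 50.6 RPM in OB. It was thus detected at over 16 RPM in every library, lower in both mOC than in both pOC libraries and highest in OB. None of its changes was called: mOC differed from OB by -1.22 on the log2 scale (SE 0.51, adjusted p = 0.23, limma) and from pOC by -0.52 (SE 0.41, adjusted p = 0.63). The 95% interval of the mOC to pOC difference ran from -1.50 to 0.46.

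The other *efnb2* gene, ENSDARG00000074050, had 0 and 0.17 RPM in mOC, 3.6 and 4.23 RPM in pOC, 0 RPM in both EV libraries and 7.83 RPM in OB. Its mOC values were at or under the floor, and pOC and OB lay above all other libraries. It fell in mOC against pOC (log2 change -2.18, SE 0.42, adjusted p = 0.0363, limma), against OB in mOC (-3.03, SE 0.52, adjusted p = 0.0158) and against OB in EV (-3.14, SE 0.52, adjusted p = 0.0257). With EV at 0, OB was at least 52.7-fold higher than EV, taking 3 reads per EV library as the floor. Whether the changes of the 2 *efnb2* genes differ was not tested.

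EphB4 genes encode the receptor of that pair. *ephb4b* had 21.2 and 12.4 RPM in mOC, 55.1 and 56.9 RPM in pOC, 46.8 and 26.9 RPM in EV and 189 RPM in OB. The fractions did not overlap, in the order OB, pOC, EV and mOC. It fell in mOC against OB (-3.46, SE 0.46, adjusted p = 0.00676, limma) and in EV against OB (-2.38, SE 0.46, adjusted p = 0.0358). The neighbours in this order were not called apart: pOC differed from OB by -1.74 (SE 0.46, adjusted p = 0.15), EV from pOC by -0.64 (SE 0.38, adjusted p = 0.441) and EV from mOC by 1.08 (SE 0.38, adjusted p = 0.11).

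*ephb4a* had 10.04 and 6.26 RPM in mOC, 23.4 and 31.5 RPM in pOC, 45.1 and 16.3 RPM in EV and 71.0 RPM in OB. OB was again above and mOC below all other libraries, while the EV libraries lay on either side of pOC. It fell in mOC against OB (-3.01, SE 0.63, adjusted p = 0.0318, limma). EV differed from OB by -1.35 (SE 0.63, adjusted p = 0.268) and from mOC by 1.66 (SE 0.51, adjusted p = 0.0834), which were not called.

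**Figure D2:**
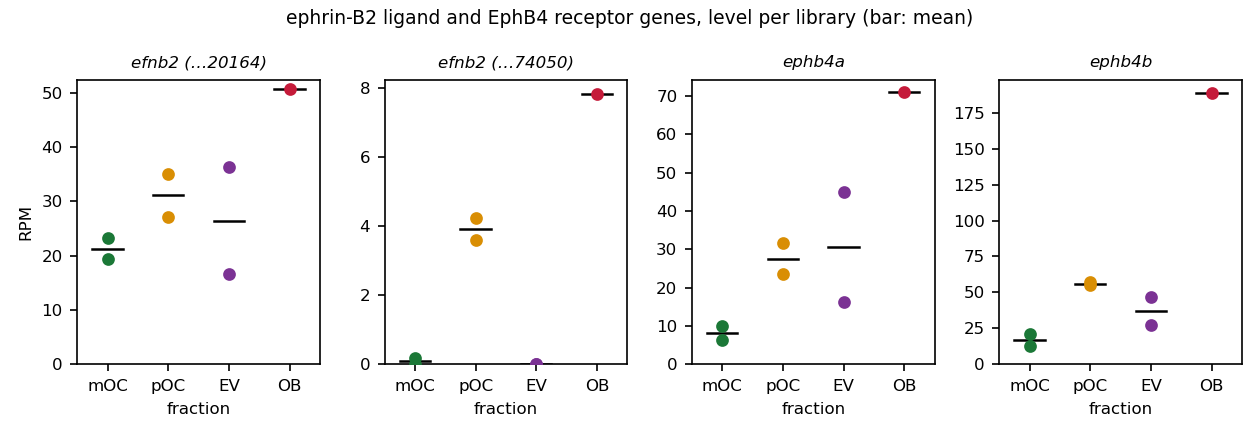
RPM of the efnb2 genes (ENSDARG00000020164 and ENSDARG00000074050) and of ephb4a and ephb4b in mOC, pOC, EV and OB, with 1 point per library, a bar at the mean and a separate axis from 0 for each gene. OB is highest in all 4 panels, at 50.6, 7.83, 71.0 and 189 RPM, and ephb4b in mOC is lowest of its panel at 21.2 and 12.4 RPM.

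Receptor and ligand RNA of this pair were set against each other within each library. Transcript lengths were not used, so only differences of this ratio between fractions can be read. The log2 ratio of *ephb4b* to the *efnb2* gene ENSDARG00000020164 was 0.13 and -0.90 in mOC, 1.02 and 0.70 in pOC, 0.37 and 0.70 in EV and 1.90 in OB. For *ephb4a* the ratio was -0.95 and -1.89 in mOC, -0.21 and -0.15 in pOC, 0.31 and -0.02 in EV and 0.49 in OB. Both ratios were lowest in the mOC libraries and highest in OB, and no test was made on them. The *efnb2* gene ENSDARG00000074050 was at 0 RPM in 3 libraries, so no ratio to it was formed. The order is thus given for the ligand gene ENSDARG00000020164 only and need not hold for the other. In bulk RNA, fewer cells of a type and less RNA per cell cannot be told apart.

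The comparison of mOC with OB gave 7 called members, all lower in mOC. Of all genes tested, 7.88% were called and 4.74% were called lower in mOC. Besides *ephb4b*, *ephb4a* and the *efnb2* gene ENSDARG00000074050 they were *epha3*, the *epha4* genes and *efnb3*, so 5 were receptors and 2 ligands. Of these, the *efnb2* gene, *efnb3* and the *epha4* gene ENSDARG00000010767 passed the filter only through OB and pOC libraries. Their calls are therefore not independent of the filter. All but 1 of the 23 members were below OB in both mOC libraries, compared with 47.2% of all genes. That count also includes the genes that passed the filter only through OB and pOC libraries. The median log2 change was -2.03 for members and -0.15 for all genes tested, with -2.46 for receptors and -1.40 for ligands.

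*epha3*, a receptor known for repelling migrating cells and axons, had 1.24 and 0.51 RPM in mOC, 5.93 and 9.28 RPM in pOC, 0 RPM in both EV libraries and 21.8 RPM in OB. The 4 fractions did not overlap. It fell in mOC against OB (-3.63, SE 0.62, adjusted p = 0.0155, limma) and in EV against OB (-4.51, SE 0.62, adjusted p = 0.0162), where OB was at least 147-fold higher than the floor of an EV library.

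EphA4 can bind ligands of both classes. Its gene ENSDARG00000054454 had 2.16 and 1.44 RPM in mOC, 4.54 and 6.49 RPM in pOC, 4.70 and 7.68 RPM in EV and 18.4 RPM in OB. Its level fell in mOC against OB (-2.80, SE 0.59, adjusted p = 0.0312, limma). The *epha4* gene ENSDARG00000010767 had 0 and 0.34 RPM in mOC, 1.47 and 0.25 RPM in pOC, 0.24 and 0 RPM in EV and 5.35 RPM in OB, so most of its values outside OB were within a few reads. The limma change in mOC against OB was -2.46 (SE 0.59, adjusted p = 0.0499), just past the threshold, and in EV against OB it was -2.51 (adjusted p = 0.0585).

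The ligand gene *efnb3* was at 0 RPM in both mOC and both EV libraries, at 1.80 and 1.11 RPM in pOC and at 4.48 RPM in OB. It fell in mOC against OB (-2.45, SE 0.48, adjusted p = 0.0249, limma) and in EV against OB (-2.45, SE 0.48, adjusted p = 0.0359). Against the floor, OB was at least 17.6-fold higher than mOC and at least 30.1-fold higher than EV. Of the 3 tested ephrin-B genes, only ENSDARG00000020164 was above 1 RPM in mOC and EV.

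The mOC to OB calls depended on the libraries kept. limma called 0 members without pOC replicate 1 or mOC replicate 2, 1 without pOC replicate 2 or mOC replicate 1, and 17 without either EV library. Over all genes limma called 1104 with all libraries, 227 to 347 without a pOC or mOC library and 2462 and 2481 without an EV library. On whole reads of mOC, EV and OB, edgeR called 0 of 18 members and 237 of 13175 genes, and DESeq2 called 4 members and 1285 of 14139 genes. At an unadjusted p under 0.05 edgeR had 6 of the 18 members and 1887 of the 13175 genes.

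The comparison of EV with OB asked how RNA of the vesicle gate differs from that of nucleated mCh+ cells. It gave 7 called members, all lower in EV, where 5.05% of all genes were called and 2.26% were called lower, and 21 of 23 members were below OB in both EV libraries, compared with 39.9% of all genes. The median log2 change was -1.96 for members and -0.18 for all genes. Both this and the mOC comparison use the same OB library, so they are not independent. The *efnb2* gene ENSDARG00000074050 and *efnb3* were called here too, and passed the filter only through OB and pOC libraries. The count of 21 also includes the *efna2* gene ENSDARG00000031372 and the *epha4* gene ENSDARG00000010767, which passed the same way. *efna3* is counted too, with 0 RPM in EV and 0.13 RPM in OB, which is under the floor of 3 reads. *efna1*, *epha2b* and an *ephb3* gene were called here and have not been described above.

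*efna1* encodes a ligand that mostly binds EphA2 and related receptors. Its gene ENSDARG00000018787 had 26.6 and 29.0 RPM in mOC, 29.7 and 32.5 RPM in pOC, 10.9 and 14.4 RPM in EV and 58.9 RPM in OB. Levels in mOC and pOC lay close together, and those in EV were below all others. It fell in EV against OB (-2.15, SE 0.37, adjusted p = 0.0287, limma), while EV differed from mOC by -1.09 (SE 0.30, adjusted p = 0.0607) and from pOC by -1.25 (SE 0.30, adjusted p = 0.128). The *efna1* gene ENSDARG00000030326 had 3.48 and 4.15 RPM in mOC, 3.93 and 3.12 RPM in pOC, 2.40 and 0 RPM in EV and 12.5 RPM in OB, and was not called in any comparison.

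*epha2b* encodes an EphA2 receptor. Levels were 6.49 and 4.82 RPM in mOC, 11.9 and 9.69 RPM in pOC, 2.40 and 0.50 RPM in EV and 26.02 RPM in OB, with no overlap between fractions. It fell in EV against OB (-3.58, SE 0.65, adjusted p = 0.0309, limma). Its relative *epha2a* had 2.47 and 4.40 RPM in mOC, 2.29 and 5.13 RPM in pOC, 3.23 and 0.99 RPM in EV and 9.83 RPM in OB. Here mOC, pOC and EV overlapped, and no comparison was called.

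EphB3 binds ephrin-B ligands. The *ephb3* gene ENSDARG00000103576 had 3.17 and 3.47 RPM in mOC, 3.11 and 8.67 RPM in pOC, 1.03 and 0.45 RPM in EV and 16.1 RPM in OB, and fell in EV against OB (-3.32, SE 0.70, adjusted p = 0.0446, limma). The *ephb3* gene ENSDARG00000031548 was not called, with 6.49 and 0.34 RPM in mOC, 10.1 and 6.98 RPM in pOC, 1.52 and 1.04 RPM in EV and 25.6 RPM in OB.

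EV calls also changed with the libraries. Without any 1 of the pOC or mOC libraries limma called 0 members in EV against OB, and it called 18 without EV replicate 1 and 11 without EV replicate 2. Counts over all genes moved likewise, to 0 without either pOC library, 56 and 57 without either mOC library, 2945 without EV replicate 1 and 2055 without EV replicate 2, against 707 with all libraries. Fitted on the EV and OB libraries alone limma called 0 members and 0 of all genes. edgeR called 0 of 18 members and also 0 of 13175 genes in all, so neither count tells members from other genes. At an unadjusted p under 0.05 edgeR had 7 of the 18 members and 2008 of the 13175 genes. DESeq2 called 5 members and 1057 of 14139 genes.

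**Figure D3:**
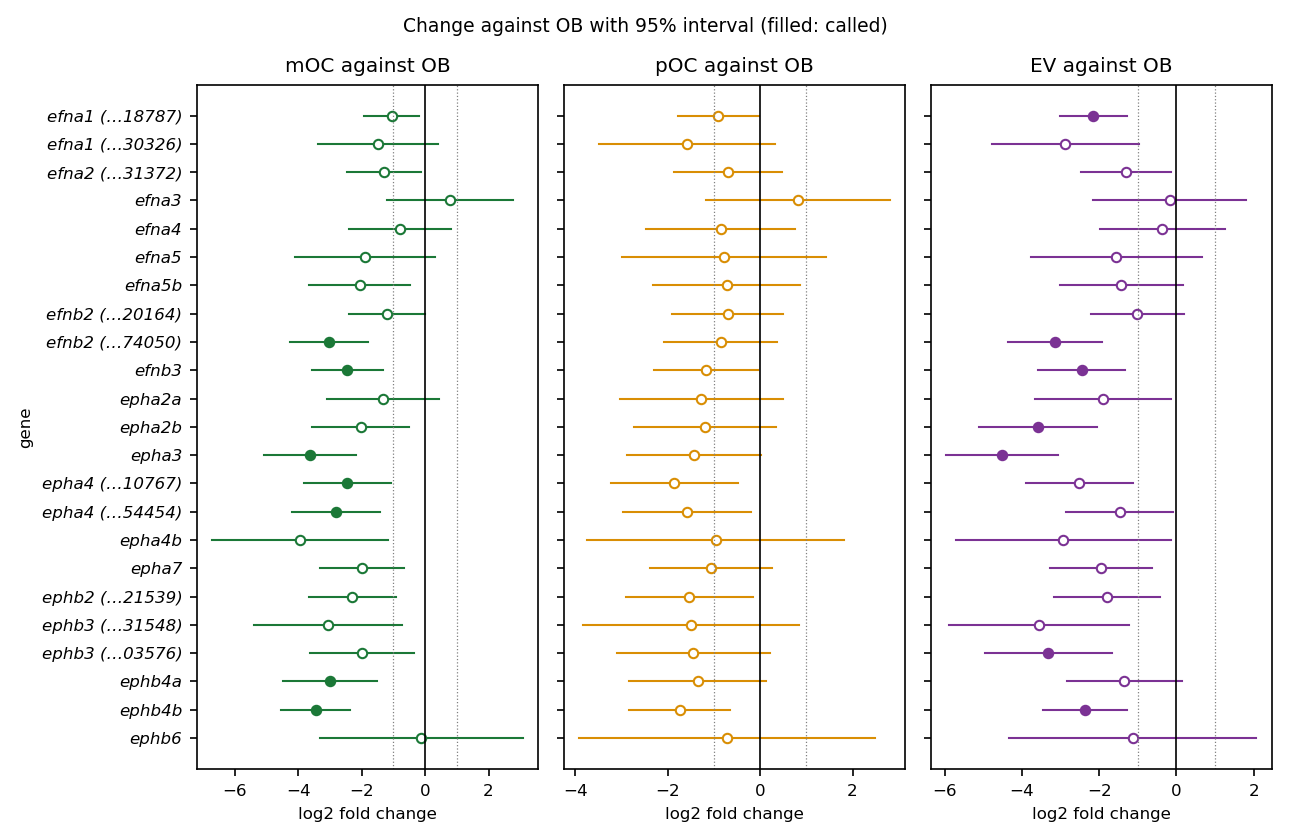
log2 fold change (x) with its 95% interval from limma for the 23 tested genes (rows) in mOC, pOC and EV, each against the 1 OB library. Filled points are called, 7 in mOC, 0 in pOC and 7 in EV, and all called points lie left of 0.

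The precursor fraction lay between mOC and OB in most tested members. For 16 of the 23 members OB exceeded both pOC libraries and both pOC libraries exceeded both mOC libraries, an order found in 14.6% of all genes tested. The *efna2* gene ENSDARG00000031372, the *efnb2* gene ENSDARG00000074050 and *efnb3* are among these 16 and passed the filter only through OB and pOC libraries. Their order of pOC over mOC is therefore not independent of the filter. Of the 23, 21 were below OB in both pOC libraries (40.4% of all genes), with a median log2 change of -1.17 against -0.03 for all genes. limma called 0 of them in pOC against OB, where 1.39% of all genes were called in either direction and 0.114% lower in pOC. limma gave an unadjusted p under 0.05 for 6 members, without a count over all genes at that threshold. It called 1 without either EV library, where the count over all genes was 1036 and 1045 against 195.

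The comparison of mOC with pOC sets the gates labelled as mature and precursor osteoclasts side by side, and whether cells of one become the other was not tested. Macrophage genes did not go 1 way between them. *marco* had 21.0 and 20.3 RPM in mOC, against 251 and 210 RPM in pOC. *cd74a* had 49.2 and 64.8 RPM in mOC, against 318 and 280 RPM in pOC. *spi1* was higher in mOC, at 713 and 779 RPM against 593 and 554 RPM in pOC. The fractions overlapped for *csf1ra*, with 173 and 201 RPM in mOC and 176 and 197 RPM in pOC. They also overlapped for *lcp1*, with 2324 and 1575 RPM in mOC and 1576 and 1088 RPM in pOC. Of the 23 members 16 were lower in both mOC than in both pOC libraries, compared with 34.4% of all genes tested, and 0 were higher, compared with 20.6%. These 16 include the *efna2* gene ENSDARG00000031372, the *efnb2* gene ENSDARG00000074050 and *efnb3*. They passed the filter only through OB and pOC libraries, so the count is not independent of the filter. The median log2 change was -0.83 for members and -0.15 for all genes. Only the *efnb2* gene ENSDARG00000074050 was called, where 4.42% of all genes were called and 3.66% were called lower in mOC. This gene passed the filter only through OB and pOC libraries. *ephb4b* (-1.72, SE 0.38, adjusted p = 0.0522, limma) and *epha3* (-2.20, SE 0.50, adjusted p = 0.0598) came next. The call was lost without any 1 of the pOC or mOC libraries, when limma called 0 members and 0 to 113 of all genes. Without either EV library 5 members were called, along with 1578 and 1577 of all genes against 619 with all libraries.

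Scaling shifts this comparison as a whole. Quantile normalization moved the median of all genes in mOC against pOC to 0.05 and that of the members to -0.60, and 17 rather than 20 of the 23 members were then below 0. In mOC against OB it moved the medians to 0.06 for all genes and -1.78 for members, with 21 rather than 22 members below 0.

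EVs were also set against the osteoclast fractions. In EV against pOC limma called 0 members, where 0.0357% of all genes were called. An unadjusted p under 0.05 was found for 7 members, without a count over all genes at that threshold. Of the 23 members 14 were below pOC in both EV libraries, compared with 28.3% of all genes, and the median log2 change was -0.78 against -0.16 for all genes. These 14 include the *efna2* gene ENSDARG00000031372, the *efnb2* gene ENSDARG00000074050, *efnb3* and the *epha4* gene ENSDARG00000010767. They passed the filter only through OB and pOC libraries, so the count is not independent of the filter. *efna3*, at 0 RPM in EV, is also among the 14. It passed only through pOC replicate 1 (2.82 RPM) and mOC replicate 2 (1.86 RPM). In EV against mOC limma called 0 members, where 11.7% of all genes were called. There 5 members had an unadjusted p under 0.05, again without a count over all genes. Here 6 members were lower and 5 higher in both EV libraries, compared with 27.6% and 26.3% of all genes. *efna3* is among these 6, so that count is not independent of the filter either. The median change was 0.00. That is the value of the *efna2* gene ENSDARG00000031372 and of *efnb3*, which were at 0 RPM in all mOC and EV libraries. Without EV replicate 1, limma called 7 members in EV against pOC and 4 in EV against mOC. Without EV replicate 2 it called 4 members in EV against pOC and 5 in EV against mOC. All-gene counts in EV against pOC were 1639 without EV replicate 1 and 939 without EV replicate 2, against 5 with all libraries, and in EV against mOC 3606 and 2892, against 1635.

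**Figure D4:**
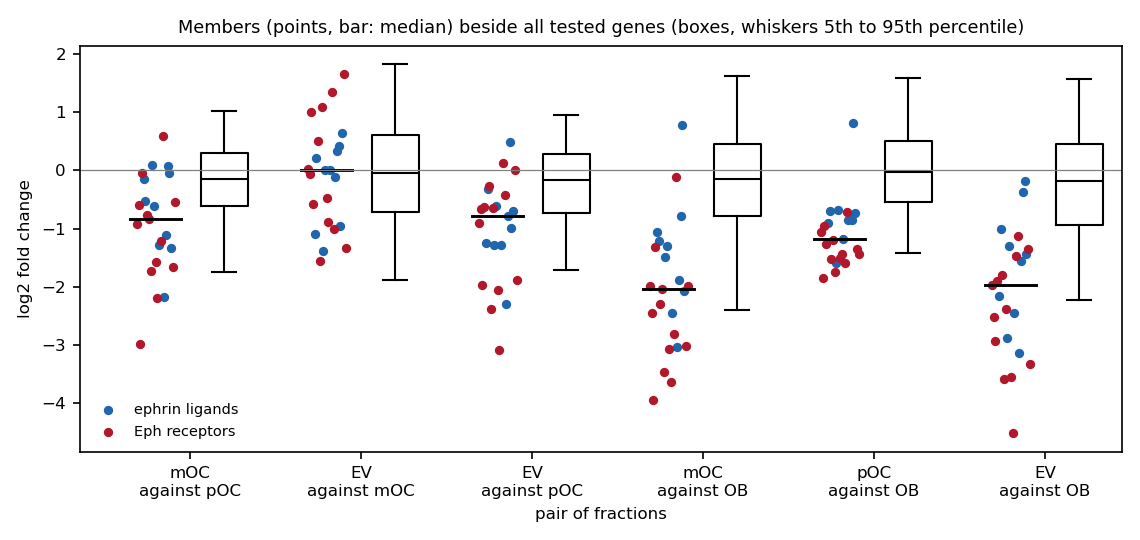
log2 fold change (y) of the 23 tested members (points, ligands in blue and receptors in red, bar at the median) beside all 14006 tested genes (boxes over the middle quartiles, line at the median, whiskers to the 5th and 95th percentiles) for the 6 pairs of fractions. Medians of the members are -2.03, -1.17 and -1.96 in mOC, pOC and EV against OB, and 0.00 in EV against mOC, where the median is the value of genes at 0 RPM in both fractions.

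Members that were not called in any comparison mostly had their highest value in OB too. *epha7*, a receptor of ephrin-A ligands, had 5.18 and 6.01 RPM in mOC, 9.94 and 13.2 RPM in pOC, 3.92 and 8.07 RPM in EV and 25.02 RPM in OB. The *ephb2* gene ENSDARG00000021539 had 2.70 and 2.29 RPM in mOC, 5.44 and 4.52 RPM in pOC, 5.24 and 2.92 RPM in EV and 16.2 RPM in OB. For *efna5b*, an ephrin-A5 ligand gene, the values were 0.54 and 0.59 RPM in mOC, 1.76 and 4.68 RPM in pOC, 0.98 and 1.98 RPM in EV and 5.55 RPM in OB. In these 3 genes mOC was below pOC and OB was above every other library. The *efna2* gene ENSDARG00000031372 was at 0 RPM in mOC and EV, at 0.16 and 1.03 RPM in pOC and at 1.47 RPM in OB.

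The 3 genes that were not highest in OB differed by more than 2-fold between the replicates of at least 1 fraction. *ephb6*, whose product has lost kinase activity in mammals, had 5.72 and 4.99 RPM in mOC, 1.19 and 7.11 RPM in pOC, 8.87 and 0 RPM in EV and 5.89 RPM in OB. *efna4*, an ephrin-A ligand, had 3.17 and 3.05 RPM in mOC, 2.37 and 3.57 RPM in pOC, 7.30 and 2.63 RPM in EV and 6.09 RPM in OB. *efna3* had 0.31 and 1.86 RPM in mOC, 2.82 and 0.04 RPM in pOC, 0 RPM in EV and 0.13 RPM in OB. In these genes an order of all fractions could not be read, because the replicates of 1 fraction spanned most of the range. Some pairs of fractions still did not overlap and enter the counts above. Both mOC libraries were below OB in *efna4* and *ephb6*, and both pOC libraries were below OB in *efna4*. In *efna3* both EV libraries were below all others, and both mOC libraries were above OB.

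Replicates of EV were the least alike. Folds between replicates were taken for tested members with at least 3 reads over both libraries of a fraction. A level under 3 reads was set to that floor, so its fold is a lower bound. The median fold was 2.24 in EV, 1.41 in mOC and 1.44 in pOC. More than 2-fold was seen for 12 of 18 genes in EV, 4 of 20 in mOC and 7 of 23 in pOC. Over all genes tested that reached this floor in a replicate, the median was 1.83 in EV, 1.37 in mOC and 1.35 in pOC. Of these genes 5957 of 13180 in EV, 3036 of 13645 in mOC and 3021 of 13939 in pOC differed by more than 2-fold. In EV, *ephb6* had 181 reads in replicate 1 and 0 in replicate 2, and *epha4b* had 139 and 0. For *efna5* the EV libraries held 268 and 35 reads, or 13.1 and 1.73 RPM, against 5.18 and 2.96 RPM in mOC, 9.94 and 9.37 RPM in pOC and 17.3 RPM in OB. *epha4b* had 0 and 0.93 RPM in mOC, 7.61 and 12.8 RPM in pOC and 20.3 RPM in OB. Quartz-Seq amplifies cDNA by PCR without molecular identifiers, so these reads are not counts of separate molecules.

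**Figure D5:**
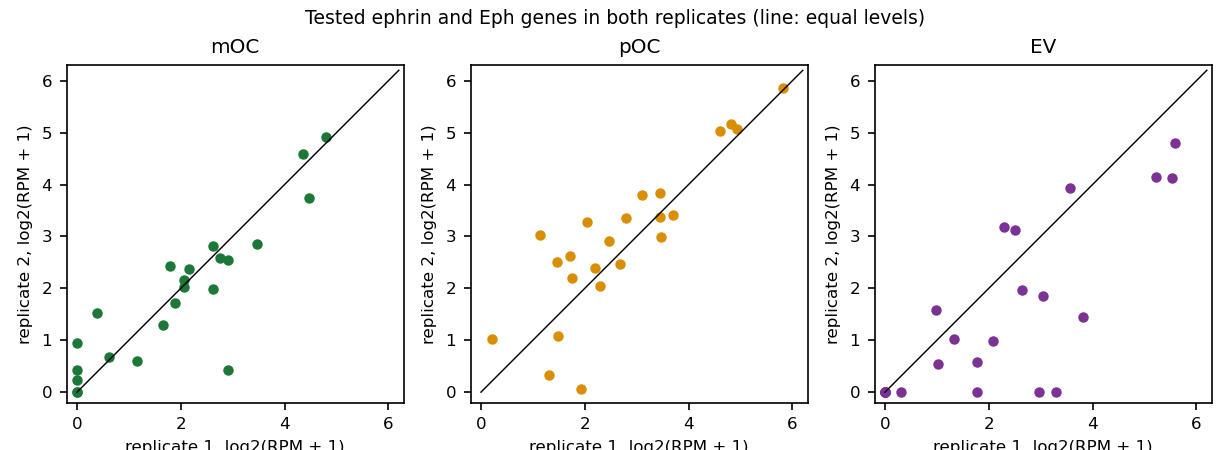
Replicate 2 (y) against replicate 1 (x) for the 23 tested genes in mOC, pOC and EV, both as log2(RPM + 1), with a line of equal levels. Points lie farthest from the line in EV, where 12 of the 18 genes above 0 differ by more than 2-fold. Among all tested genes at or above the floor in EV, 5957 of 13180 do so.

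Osteoblast markers were highest in OB, and their order among the other fractions depended on *spp1*. Of 11 marker genes 8 were highest in OB, and without *spp1* (osteopontin, also made by osteoclasts) they summed to 1846 and 857 RPM in mOC, 8565 and 8353 RPM in pOC, 6259 and 3767 RPM in EV and 21930 RPM in OB. With *spp1*, which was highest in mOC (15928 and 10503 RPM, against 475 RPM in OB), the list summed to 17774 and 11360 RPM in mOC, 13052 and 10472 RPM in pOC, 7977 and 4628 RPM in EV and 22405 RPM in OB, so that mOC was then not below pOC or EV. Their part in the result was not tested. Endothelial cells also carry ephrin-B2 and EphB4. Endothelial markers summed to 11.9 and 9.99 RPM in mOC, 41.8 and 29.7 RPM in pOC, 91.8 and 88.3 RPM in EV and 23.2 RPM in OB. Of the 9 genes 4 and 6 were above 0 in mOC, 9 and 7 in pOC, 7 and 3 in EV and 6 in OB. Among them *cdh5* and *sox17* were at 0 RPM in mOC, EV and OB. *tie1* had 41.01 and 72.8 RPM in EV and 4.01 RPM in OB, and *fli1* had 22.3 and 14.8 RPM in EV and 7.89 RPM in OB. In 1 EV library only, OB was exceeded by *kdrl* (14.4 and 0 RPM in EV, 7.09 RPM in OB), the *cldn5* gene ENSDARG00000014059 (10.7 and 0 RPM, 0.13 RPM) and *flt4* (2.99 and 0 RPM, 0 RPM). The other *cldn5* gene, ENSDARG00000043716, was lower in EV (0.29 and 0 RPM) than in OB (2.88 RPM). So was *egfl7*, with 0.05 and 0.69 RPM in EV and 1.2 RPM in OB. The part of endothelial RNA in the result was not tested. Epidermal markers summed to 976 and 684 RPM in mOC, 1067 and 985 RPM in pOC, 1464 and 439 RPM in EV and 1542 RPM in OB, and their part was not tested either. Pigment cell markers (1 of which, *csf1ra*, is also a macrophage marker here) summed to 910 and 708 RPM in mOC, 568 and 563 RPM in pOC, 221 and 1050.5 RPM in EV and 44.6 RPM in OB, the reverse of the family between mOC and OB. Nerve and glia markers, of cells known for Eph signalling, summed to at most 7.69 RPM in any library and red cell markers to at most 0.34 RPM.

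Among the 4 fractions, 7 of 38 tested genes that act behind Eph receptors were called, where 11.1% of all genes were. Of 38 tested genes of receptor side signalling, 2 rose and 3 fell in mOC against OB (7.88% of all genes called). In EV against OB 1 rose and 1 fell (5.05%), in pOC against OB 1 rose (1.39%) and in mOC against pOC 1 fell (4.42%). In EV against mOC 5 rose (11.7%), and in EV against pOC 0 were called (0.0357%). There 6 of the list had an unadjusted p under 0.05 in limma, without a count over all genes at that threshold. The list's median log2 change was -0.62 in mOC against OB and -0.53 in EV against OB, beside -0.15 and -0.18 for all genes. *src*, a kinase that osteoclasts need to resorb bone and that also relays ephrin-B reverse signals, had 190 and 213 RPM in mOC, 106 and 128 RPM in pOC, 105 and 110 RPM in EV and 39.7 RPM in OB. It rose against OB in mOC (2.31, SE 0.26, adjusted p = 0.00357, limma), in pOC (1.53, SE 0.26, adjusted p = 0.0451) and in EV (1.42, SE 0.26, adjusted p = 0.0309).

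Adaptor genes of the same list differed in direction. *grb2b*, which encodes an adaptor that links receptors to Ras, had 147 and 120 RPM in mOC, 100.1 and 117 RPM in pOC, 68.3 and 82.7 RPM in EV and 38.4 RPM in OB, and rose in mOC against OB (1.76, SE 0.29, adjusted p = 0.014, limma). *anks1b*, of a family of adaptors that bind Eph receptors, had 10.1 and 11.4 RPM in mOC, 20.9 and 29.2 RPM in pOC, 14.1 and 9.96 RPM in EV and 71.7 RPM in OB, and fell in mOC against OB (-2.63, SE 0.44, adjusted p = 0.0143) and in EV against OB (-2.50, SE 0.44, adjusted p = 0.0292). The *nck1* gene ENSDARG00000074262, which encodes an adaptor to the actin cytoskeleton, had 9.58 and 13.1 RPM in mOC, 56.8 and 46.8 RPM in pOC, 62.5 and 90.5 RPM in EV and 27.5 RPM in OB. Its level fell in mOC against pOC (-2.10, SE 0.32, adjusted p = 0.0161) and rose in EV against mOC (2.64, SE 0.32, adjusted p = 0.00415). The other *nck1* gene, ENSDARG00000075369, also rose in EV against mOC (1.35, SE 0.24, adjusted p = 0.0146, limma).

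Of 16 tested genes of ephrin-B reverse signalling, 1 rose and 1 fell in mOC against OB (7.88% of all genes called), 1 rose in EV against OB (5.05%), 1 rose in pOC against OB (1.39%), and 1 rose and 1 fell in EV against mOC (11.7%). Among the 4 fractions *src* alone of these 16 was called, where 11.1% of all genes were. Of 16 genes of ligand shedding and receptor turnover, 1 rose and 1 fell in mOC against OB (7.88%), 1 rose in EV against OB (5.05%), 1 fell in mOC against pOC (4.42%) and 1 rose in EV against mOC (11.7%). With so few calls neither list can be read as standing apart from all genes. *ptprja*, which encodes a receptor tyrosine phosphatase, had 2.16 and 0.93 RPM in mOC, 21.9 and 34.3 RPM in pOC, 40.3 and 42.9 RPM in EV and 14.8 RPM in OB. It fell in mOC against pOC (-3.53, SE 0.42, adjusted p = 0.0076, limma) and against OB (-2.68, SE 0.52, adjusted p = 0.0238), and rose in EV against mOC (4.11, SE 0.42, adjusted p = 0.00206).

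Bone genes placed around ephrin-B2 and EphB4 in mouse were examined in the same way, with 10 tested. In mOC against pOC 1 rose and 1 fell (4.42% of all genes called), in mOC against OB 1 fell (7.88%), in EV against OB 1 fell (5.05%), and in EV against mOC 1 rose and 1 fell (11.7%). *nfatc1*, the transcription factor of osteoclast differentiation that in mouse promotes *Efnb2* expression, had 406 and 284 RPM in mOC, 118 and 119 RPM in pOC, 27.4 and 15.7 RPM in EV and 124 RPM in OB, and rose in mOC against pOC (1.51, SE 0.32, adjusted p = 0.0465, limma). In that comparison the *efnb2* gene ENSDARG00000074050 fell, and ENSDARG00000020164 differed by -0.52, which was not called. *dlx5*, an osteoblast transcription factor, had 1.47 and 1.27 RPM in mOC, 15.0 and 16.1 RPM in pOC, 15.2 and 15.4 RPM in EV and 41.7 RPM in OB, and fell in mOC against OB (-4.17, SE 0.45, adjusted p = 0.00333) and against pOC (-2.80, SE 0.37, adjusted p = 0.00986).

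Other contact and guidance families (Slit and Robo, Semaphorin and Neuropilin, Notch) were counted beside the ephrins. Of 22 tested genes, 2 fell in mOC against OB (4.74% of all genes called lower) and 4 fell in EV against OB (2.26% lower), 1 fell in pOC against OB (0.114% lower), 1 fell in mOC against pOC (3.66% lower), and 2 rose and 3 fell in EV against mOC (11.7% in either direction). Their median log2 change was -1.25 in mOC against OB and -1.51 in EV against OB, beside -2.03 and -1.96 for the ephrin and Eph genes; the difference between the families was not tested. *slit3*, a secreted guidance ligand, had 25.6 and 29.9 RPM in mOC, 137 and 183 RPM in pOC, 97.2 and 121 RPM in EV and 657 RPM in OB. It fell against OB in mOC (-4.52, SE 0.30, adjusted p = 0.00105, limma), in pOC (-2.04, SE 0.30, adjusted p = 0.0332) and in EV (-2.59, SE 0.30, adjusted p = 0.0124).

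Receptors of these families gave further patterns. *robo2*, a Slit receptor gene, had 11.9 and 13.8 RPM in mOC, 14.8 and 19.3 RPM in pOC, 1.37 and 0 RPM in EV and 27.6 RPM in OB, and fell in EV against OB (-4.22, SE 0.64, adjusted p = 0.021, limma). The *nrp2* gene ENSDARG00000038446, which encodes a Semaphorin co-receptor, had 26.5 and 17.7 RPM in mOC, 27.8 and 28.1 RPM in pOC, 6.22 and 4.80 RPM in EV and 52.7 RPM in OB, and also fell in EV against OB (-3.05, SE 0.43, adjusted p = 0.0174). The other *nrp2* gene, ENSDARG00000096546, was lowest in mOC (0.54 and 2.29 RPM, against 10.5 and 5.0 RPM in EV and 22.3 RPM in OB). It fell in mOC against OB (-3.37, SE 0.69, adjusted p = 0.0285, limma). The *notch1* gene ENSDARG00000103554, which encodes a receptor for ligands on the neighbouring cell, was at 2.09 and 1.69 RPM in mOC, 11.5 and 5.83 RPM in pOC, 20.9 and 24.9 RPM in EV and 5.89 RPM in OB. Its level rose in EV against mOC (3.04, SE 0.46, adjusted p = 0.00877, limma). The other *notch1* gene, ENSDARG00000052094, was not called in any comparison.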

How the data were processed

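The authors made cDNA by Quartz-Seq, and their processing notes name HISAT2 2.1.0, Subread 1.6.4 and the build GRCz11. RPM values were deposited to 2 decimals and entered the fits as they stand. The annotation release and strandedness of the counting are unknown here, and reads of near-identical or overlapping genes may be shared between them. Coordinates and sequences are not given, since the reference tables were of another build and held no sequence. Symbols came from a table that named 28988 of the 32057 genes, and symbols not found were tried again with the final letter removed.

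Within 0.005 RPM, at least 99.97% of the values of each library came out as whole reads. limma 3.58.1 (trend and robust) in R 4.3.3 took log2(RPM + 1) as input. It covered 14006 genes, each reaching 1 RPM in 2 or more of the 7 distinct libraries, with 4 fraction means and 3 residual degrees of freedom. A fold change on this scale understates that of low genes. A call needed a p under 0.05 after Benjamini-Hochberg adjustment over all genes and a log2 change beyond 1, in a moderated F test over the 4 fractions and in 6 pairs. Every adjusted p in the text is from limma. edgeR 4.0.16 (quasi-likelihood) and DESeq2 1.42.0 used the recovered reads of mOC, EV and OB. These fits left out pOC, where 1 read is worth least relative to the rounding, and edgeR called 237 genes in mOC against OB, 0 in EV against OB (2008 at an unadjusted p under 0.05, and 1057 called by DESeq2) and 296 in EV against mOC.

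Members and gene lists were chosen with earlier results of these data known. All members are accounted for. Those called, and the *efnb2* and *ephb4* genes, are given by library. Of each gene list, at most 4 genes called among the 4 fractions are named, by smallest p, and beside them the other gene of a shared symbol. Lists are described by counts and medians, with no set test. Symbols matched were 36 of 39 for receptor side signalling, 19 of 19 for reverse signalling, 18 of 19 for shedding and turnover, 11 of 12 for the bone genes and 22 of 23 for other families. Alternatives were other scalings, pseudocounts and filters, a replicate block, pair-only fits and each library other than OB left out. Fits without OB or without EV were added after seeing the data. Figures were drawn with matplotlib 3.10.9 in Python 3.11.15.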

Additional observations from a re-analysis of the deposited data

How the results depend on the processing

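No called member changed direction under any alternative run, but no comparison with OB could be run without its 1 library. For members called, leaving out 1 library gave 0 to 17 among the 4 fractions (6 in the text), 0 to 5 in mOC against pOC (1), 0 to 17 in mOC against OB (7), 0 to 1 in pOC against OB (0), 0 to 18 in EV against OB (7), 0 to 7 in EV against pOC (0) and 0 to 5 in EV against mOC (0). With no filter the counts were 2 among the fractions, 0 in mOC against pOC and 4 in EV against OB, where 798, 229 and 522 of 23793 genes were called in all. A pseudocount of 0.1 RPM gave 0 in mOC against pOC, 4 in mOC against OB and 3 in EV against OB, with 529, 894 and 553 of 14006 genes in all. A pseudocount of 5 RPM gave 0 in mOC against pOC, with 582 genes in all. At least 5 RPM in 2 libraries gave 4 in mOC against OB and 1 in EV against mOC, with 1148 and 1613 of 9449 genes in all. Under that filter the *efnb2* gene ENSDARG00000074050, *efnb3* and the *epha4* gene ENSDARG00000010767 were not tested. They were among the 7 called in mOC against OB in the text, so these counts do not cover the same genes. Quantile normalization gave 2 in mOC against pOC and 1 in EV against mOC, with 586 and 1661 of 14006 genes in all. Fits restricted to a pair of fractions gave 5 in mOC against pOC, 2 in pOC against OB and 0 in EV against OB, where they called 1542, 1196 and 0 of all 14006 genes (619, 195 and 707 with all fractions fitted together). In the fits added after seeing the data, 5, 17 and 1 members were called without EV in mOC against pOC, mOC against OB and pOC against OB. Over all 14006 genes these fits without EV called 1544, 2435 and 987. The counts without OB were 1, 0 and 0 members in mOC against pOC, EV against pOC and EV against mOC, with 607, 5 and 1624 genes in all. edgeR gave 0 in mOC against OB and in EV against OB, with 237 and 0 of 13175 genes in all. At an unadjusted p under 0.05 edgeR had 6 and 7 members there, and 1887 and 2008 genes in all. DESeq2 gave 4 in mOC against OB, 5 in EV against OB and 2 in EV against mOC, with 1285, 1057 and 1849 of 14139 genes in all. The causes were not tested.

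Some log2 changes that were not called turned. For the *efnb2* gene ENSDARG00000020164, EV against pOC was -0.32 and ran from -0.86 (without EV replicate 1) to 0.23 (without EV replicate 2), and EV against mOC was 0.21 and ran from -0.34 (without EV replicate 1) to 0.75 (without EV replicate 2). For *ephb4a*, EV against pOC was 0.0049, ran from -0.70 (without EV replicate 1) to 0.71 (without EV replicate 2), was -0.20 without pOC replicate 1, and was -0.0004 with a pseudocount of 0.1 RPM.

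Whether same-numbered libraries come from the same animals or sort is not stated. Their deviations from the fraction means correlated at 0.17 for mOC and pOC and at 0.07 for mOC and EV and for pOC and EV. These correlations cannot decide whether the libraries are paired. With a replicate block 5 members were called among the fractions, 2 in mOC against pOC, 6 in mOC against OB and 6 in EV against OB. Over all 14006 genes these counts were 1527, 631, 1168 and 744. The block gave 0 members in pOC against OB, EV against pOC and EV against mOC, with 243, 24 and 1674 genes in all. In mOC against OB, the log2 change of *ephb4b* ran from -3.82 to -3.10 over 18 alternatives and was called in 15. These include a repeat of the full fit, because leaving out either OB file keeps the same library. Many others kept the change at -3.46 and could alter only its p-value, so the count does not measure how far OB varies. Values near the floor of 3 reads, such as those of *efnb3* and of the *epha4* gene ENSDARG00000010767 outside OB, limit what depth can show, and the lack of an OB replicate limits all comparisons with OB.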
